A study of Mus musculus with 10 samples.

Results

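The dual-specificity MAP kinase phosphatases remove phosphate from both the threonine and the tyrosine in the activation loop of a MAP kinase, and so switch the kinase off. The 9 family members described here, Dusp1, Dusp2, Dusp4, Dusp5, Dusp6, Dusp7, Dusp8, Dusp10 and Dusp16, were chosen by gene symbol among 24411 gene rows, and each had at least 1 count in the 10 libraries. Textbook accounts sort them by location and substrate. Dusp1, Dusp2, Dusp4 and Dusp5 are nuclear and are made in response to stimuli, Dusp6 and Dusp7 are cytoplasmic and act on ERK, and Dusp8, Dusp10 and Dusp16 act on the stress kinases JNK and p38. In macrophages and microglia, lipopolysaccharide (LPS, a component of the bacterial outer membrane) activates ERK, JNK and p38 through the receptor TLR4, and the induced phosphatases limit how long cytokine genes stay on.

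The study asked whether blocking EZH2, the methyltransferase of Polycomb complex PRC2, alters the activation of neonatal mouse microglia. Gene-level read counts were available for 4 groups. They were primary microglia given the EZH2 inhibitor EPZ-6438 and LPS (3 libraries), primary microglia given EPZ-6438 without LPS (3 libraries), BV2 cells given EPZ-6438 and LPS (2 libraries) and BV2 cells given EPZ-6438 without LPS (2 libraries). EPZ-6438 was at 10 uM and LPS at 10 ng/ml, each for 4 h. All 4 groups carried the inhibitor and no library without it was analysed here, so none of the values below measures the inhibitor's effect. The primary cells came from pooled whole brains of 12 ICR mice aged 3 days, and were shaken off mixed glial cultures. BV2 is an immortalised mouse microglial line. Whether the replicates of a group were separate cultures is not stated, and p-values here therefore describe only the spread between these libraries, which may be technical.

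Counts assigned to genes ranged from 2750988 to 3684012 per library, and the pre-ribosomal gene Rn45s took a share of them that differed between groups. It was 43.7% in LPS-treated primary replicate 1 and 15.7% and 16.0% in replicates 2 and 3, against 40.9% to 51.7% in untreated primary microglia, and 27.0% to 30.1% in BV2 cells. With 7 structural RNA genes left out, Rn45s among them, no member's call changed in the comparisons below. Levels are given as CPM, counts scaled to a common library total, on library sizes scaled by the trimmed mean of M values (TMM), a scaling that is not driven by such single genes. At these depths 3 counts corresponded to 0.814 to 1.09 CPM. All 10 listed microglia markers were detected in both primary groups, and 9 of 10 in both BV2 groups, where Sall1, a microglial transcription factor, was at 0. LPS-treated primary replicate 1 stood apart from the others of its group, with a correlation of log counts of 0.961 and 0.963 against 0.980 between replicates 2 and 3. All 8 LPS response genes measured as a check, among them Il1b, Il6 and Tnf, rose in both cell types. Without LPS, Il1b, Il6, Cxcl10 and Irg1 averaged 0 to 2.66 CPM in primary microglia and 0 to 2.72 CPM in BV2 cells. That is under the cutoffs of the low-count filter, 3.30 and 3.58 CPM. Treated libraries carried these genes into the test, so their rise is no independent check.

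On GRCm38 (GENCODE vM21), the nuclear members lay at chr17:26505590-26508519 (Dusp1, minus strand), chr2:127336159-127338376 (Dusp2, plus strand), chr8:34807297-34819894 (Dusp4, plus strand) and chr19:53529109-53542431 (Dusp5, plus strand). The cytoplasmic members lay at chr10:99263231-99267488 (Dusp6, plus strand) and chr9:106368632-106375724 (Dusp7, plus strand). The members acting on JNK and p38 lay at chr7:142079490-142095272 (Dusp8, minus strand), chr1:184034381-184075636 (Dusp10, plus strand) and chr6:134715473-134792625 (Dusp16, minus strand). Their transcripts had 3 to 7 exons, and the spliced length used for scaling ran between 1617 bases for Dusp2 and 5104 bases for Dusp16. Each member lay on a different chromosome.

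RefSeq promoter windows (GRCm38.p6, 250 bases before to 50 after the gene start) were found for 8 of the 9 members and searched on both strands for 4 motifs of stimulus-responsive promoters. The full cAMP response element TGACGTCA was present in 2 of 8 member windows, Dusp1 and Dusp8, against 1.79% of 32851 windows of all genes. The CArG box, which binds serum response factor, was present in 1 of 8, Dusp5, against 1.63% of all windows. The NF-kB motif was in 0 of 8 (4.51% of all windows) and the AP-1 motif TGANTCA in 0 of 8 (7.81%), which says only that those letters are not in these windows. The 3 stretches that hold matches are shown so that the matched letters can be read in place. Distances count from the RefSeq start of each window, which lies 47 bases (Dusp1) and 36 bases (Dusp5) downstream of the GENCODE transcript start given above and, for Dusp8, 12 bases upstream of it. The stretches run 5′ to 3′ on the gene's strand, and capitals mark the matches: in Dusp1 (chr17:26508578-26508645) at bases -143 to -136, in Dusp5 (chr19:53529033-53529112) at -82 to -73 and -72 to -63, which abut without overlapping, and in Dusp8 (chr7:142095310-142095421) at -107 to -100 and -63 to -56.
Dusp1: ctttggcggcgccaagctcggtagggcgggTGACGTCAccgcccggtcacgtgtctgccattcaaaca
Dusp5: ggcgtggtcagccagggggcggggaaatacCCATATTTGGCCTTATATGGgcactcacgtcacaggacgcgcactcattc
Dusp8: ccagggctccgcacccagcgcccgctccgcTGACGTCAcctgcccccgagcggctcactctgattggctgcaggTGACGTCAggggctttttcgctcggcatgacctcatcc

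In primary microglia LPS raised 5 of the 9 members, Dusp2, Dusp4, Dusp5, Dusp6 and Dusp16, and lowered none at an adjusted p under 0.05 (edgeR's quasi-likelihood test with Benjamini-Hochberg adjustment over all 10664 genes tested). Over all genes tested, 21.4% rose and 17.8% fell. The median log2 fold change was 0.70 over the members and -0.03 over all genes. In BV2 cells LPS raised 4 of the 8 members tested, Dusp2, Dusp4, Dusp8 and Dusp16, and lowered 1, Dusp7. There 3.69% of 9321 genes rose and 1.51% fell, and the medians were 1.39 over the members and -0.01 over all genes. Dusp2 in primary microglia and Dusp8 in BV2 cells passed the filter on low counts only through their LPS-treated libraries, so both had to differ to be tested. Dusp10 in BV2 cells passed in no group and was not tested.

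**Figure D1:**
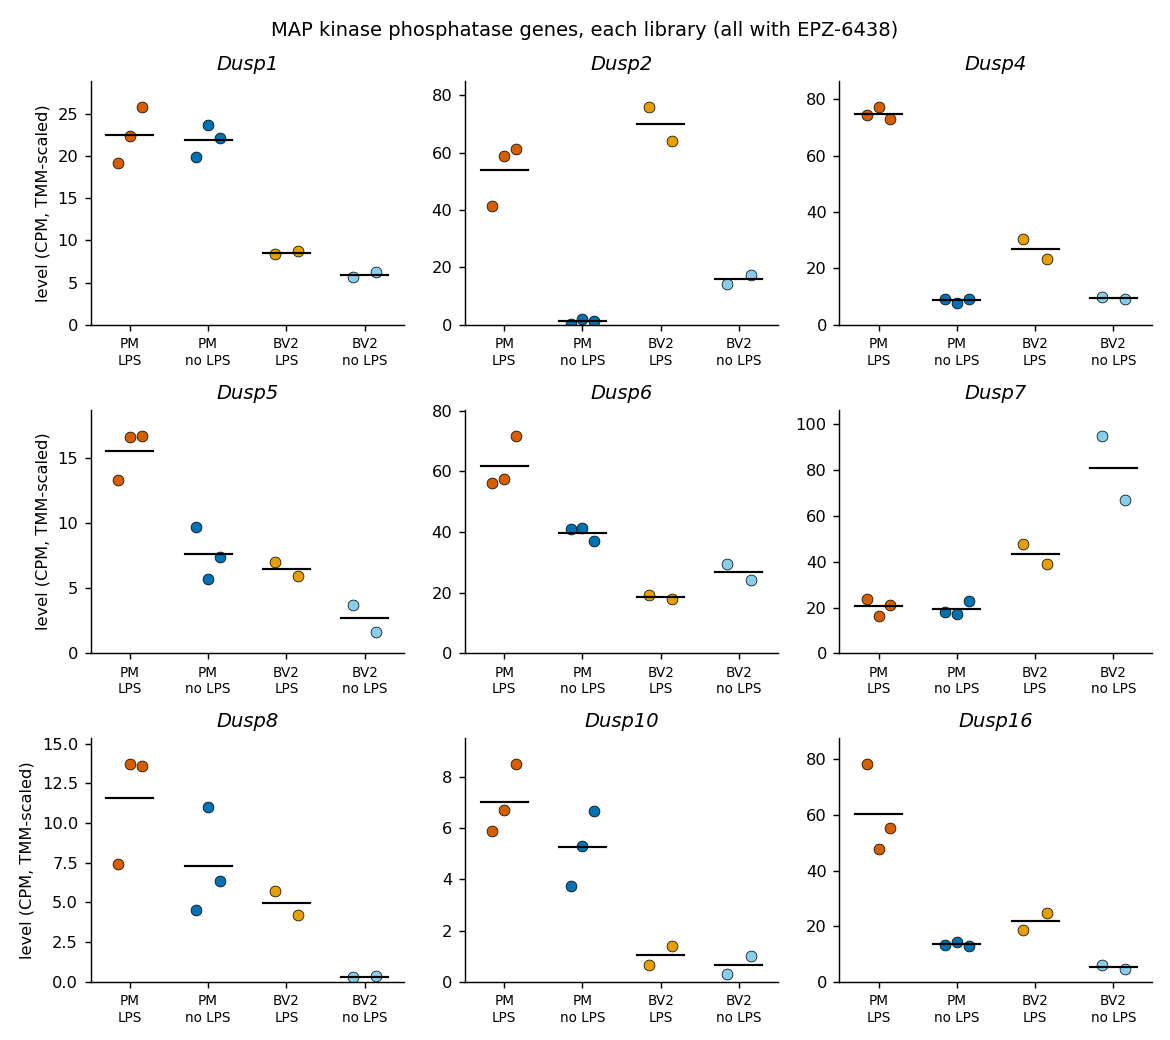
Level of each of the 9 phosphatases in every library, in CPM on a linear axis from 0 that differs between panels, with a point per library, a bar at each group's mean and PM for primary microglia. Dusp2 ran at 41.5 to 61.2 CPM in LPS-treated primary microglia, against 0.375 to 2.04 CPM without LPS, while the Dusp1 and Dusp7 points of the primary groups overlap.

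Among the nuclear members, Dusp1 (MKP-1), which acts on p38 and JNK and restrains cytokine production in macrophages, did not pass the test in primary microglia. Its values were 19.2, 22.3 and 25.8 CPM in the 3 LPS-treated libraries, against 19.9, 23.7 and 22.2 CPM without LPS, so the groups overlapped. The log2 fold change was 0.03 ± 0.19 (SE; adjusted p = 0.907), with a 95% interval of -0.33 to 0.40. BV2 cells had 8.39 and 8.73 CPM with LPS and 5.61 and 6.28 CPM without. These groups did not overlap, but the log2 fold change of 0.56 ± 0.31 did not pass (adjusted p = 0.497). The labels give a single time, 4 h, and no earlier level was measured.

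Dusp2 (PAC-1), a phosphatase of activated immune cells, had the largest log2 fold change among the members in primary microglia. It stood at 41.5, 58.7 and 61.2 CPM in LPS-treated primary microglia, against 0.375, 2.04 and 1.41 CPM without LPS, which are 1, 5 and 4 counts. All 3 treated libraries lay far above the untreated ones, and the log2 fold change was 5.37 ± 0.32 (adjusted p = 6.19e-11). That p is not independent of the filter, which the gene passed through its treated libraries. In a fit without the filter the log2 fold change was 5.40. The p-value of that fit adds no support, as adjusted p-values there were also smaller for members not limited by the filter. For Dusp4, for example, edgeR's adjusted p was 8.22e-60 without the filter and 1.14e-11 with it. In BV2 cells Dusp2 was at 75.9 and 64.0 CPM with LPS and 14.3 and 17.5 CPM without, a log2 fold change of 2.16 ± 0.19 (adjusted p = 1.42e-05). The LPS-treated groups of both cell types were thus near each other, and the untreated groups were not: BV2 cells without LPS averaged 15.9 ± 2.24 CPM (SD, n = 2) and primary microglia without LPS 1.28 ± 0.84 CPM (SD, n = 3).

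Dusp4 (MKP-2), an inducible phosphatase of ERK and JNK, rose in both cell types. It was at 74.4, 77.2 and 72.9 CPM in LPS-treated primary microglia, against 8.99, 7.77 and 9.15 CPM without LPS, a log2 fold change of 3.09 ± 0.16 (adjusted p = 1.14e-11). BV2 cells had 30.5 and 23.4 CPM with LPS and 9.98 and 9.25 CPM without, a log2 fold change of 1.51 ± 0.24 (adjusted p = 0.00216). The untreated levels of the 2 cell types were close but did not overlap, and the treated levels lay far apart.

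Dusp5, a nuclear phosphatase specific for ERK whose promoter stretch is shown above, was at 13.3, 16.6 and 16.7 CPM in LPS-treated primary microglia, against 9.74, 5.72 and 7.39 CPM without LPS. The groups were apart and the log2 fold change was 1.01 ± 0.25 (adjusted p = 0.00324). In BV2 cells it had 7.05 and 5.92 CPM with LPS and 3.74 and 1.65 CPM without. The log2 fold change of 1.27 ± 0.43, with a 95% interval of 0.42 to 2.11, did not pass after adjustment (adjusted p = 0.155), and these levels rest on 42 counts in all with LPS and 17 without.

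The cytoplasmic members, which act on ERK, had different values in the 2 cell types. Dusp6 (MKP-3) was at 56.0, 57.4 and 71.7 CPM in LPS-treated primary microglia, against 40.8, 41.3 and 36.9 CPM without LPS, and rose by a log2 fold change of 0.63 ± 0.14 (adjusted p = 0.00173). In BV2 cells it had 19.1 and 18.0 CPM with LPS and 29.3 and 24.1 CPM without. Both treated BV2 libraries were below both untreated ones, but the log2 fold change of -0.49 ± 0.21 did not pass (adjusted p = 0.305).

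Dusp7 (MKP-X) was at 23.9, 16.3 and 21.3 CPM in LPS-treated primary microglia, against 18.0, 17.2 and 22.9 CPM without LPS. The groups overlapped, and the log2 fold change was 0.06 ± 0.21 (adjusted p = 0.848; 95% interval -0.35 to 0.46). In BV2 cells it fell to 47.7 and 39.2 CPM with LPS, against 95.1 and 67.1 CPM without, a log2 fold change of -0.87 ± 0.19 (adjusted p = 0.0163). The call rested on replicate 1 of the untreated BV2 cells, the highest of the 4: without it the log2 fold change was -0.58 (adjusted p = 0.306).

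Among the members acting on JNK and p38, Dusp16 (MKP-7) rose in both cell types. It was at 78.3, 47.8 and 55.3 CPM in LPS-treated primary microglia, against 13.1, 14.3 and 13.0 CPM without LPS, a log2 fold change of 2.14 ± 0.20 (adjusted p = 4.29e-08). Replicate 1, the library that stood apart, was the highest of the treated libraries. BV2 cells had 18.8 and 24.8 CPM with LPS and 5.93 and 4.63 CPM without, a log2 fold change of 2.08 ± 0.29 (adjusted p = 0.000637). The groups did not overlap in either cell type.

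Dusp8, a phosphatase of JNK and p38 whose promoter stretch holds the paired element shown above, was at 7.44, 13.7 and 13.6 CPM in LPS-treated primary microglia, against 4.50, 11.0 and 6.33 CPM without LPS. The groups overlapped and the log2 fold change of 0.70 ± 0.32 did not pass (adjusted p = 0.102). It did pass without replicate 1 of the LPS-treated cells (0.92, adjusted p = 0.00307) and without replicate 2 of the untreated cells (1.10, adjusted p = 0.0265). In BV2 cells it had 5.71 and 4.23 CPM with LPS, which are 17 and 15 counts, against 0.312 and 0.330 CPM without, which are 1 count each. The ratio was 15.3, with a 95% exact counting interval of 3.90 to 132, and edgeR's quasi-likelihood test gave an adjusted p of 0.00363, while DESeq2 gave 0.0776. Dusp10 (MKP-5), which acts on p38 and JNK, was at 5.88, 6.70 and 8.51 CPM in LPS-treated primary microglia and 3.75, 5.31 and 6.69 CPM without LPS. Its log2 fold change was 0.42 ± 0.31 (adjusted p = 0.311; 95% interval -0.20 to 1.03). In BV2 cells it had only 2 and 5 counts with LPS and 1 and 3 counts without, so no difference was detectable at this depth.

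**Figure D2:**
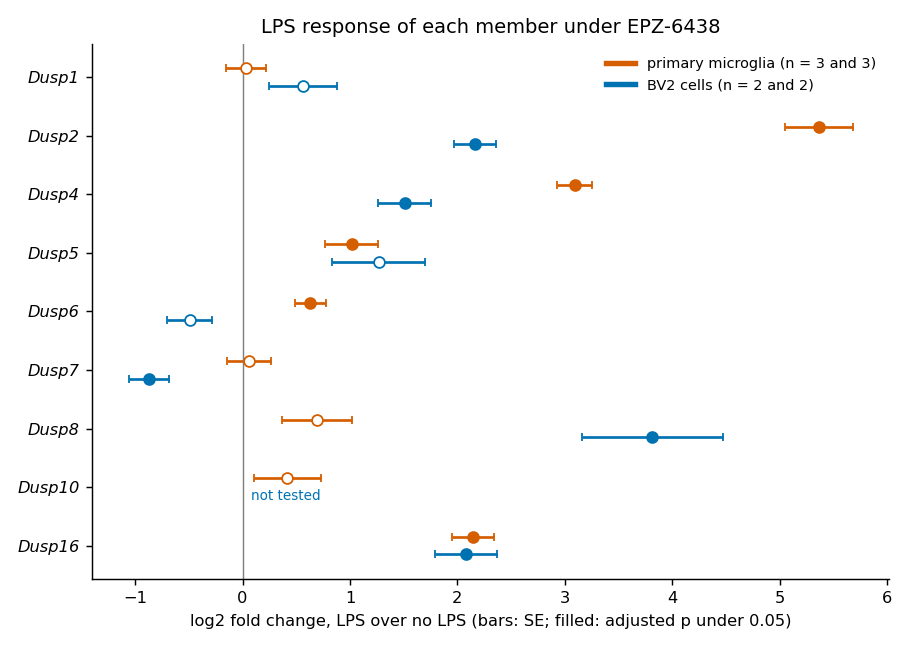
Log2 fold change of each member with LPS against without, in primary microglia and in BV2 cells, with bars of 1 standard error and filled points for an adjusted p under 0.05. Dusp2 lies at 5.37 in primary microglia and 2.16 in BV2 cells, Dusp16 at 2.14 and 2.08, and Dusp10 has no BV2 point because it was not tested there.

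The difference between the 2 LPS responses was tested directly in a fit of all 10 libraries, as the response of primary microglia minus that of BV2 cells. It was called for 5 of 9 members, 4 with the larger or more positive response in primary microglia and 1 the other way, where 8.65% of 11626 genes were called positive and 3.54% negative. Among nuclear members the difference was 3.25 ± 0.44 on the log2 scale for Dusp2 (adjusted p = 2.92e-06) and 1.63 ± 0.30 for Dusp4 (adjusted p = 0.000286). Both kept their calls under every alternative run. For Dusp1 it was -0.48 ± 0.37 and for Dusp5 -0.20 ± 0.50, and neither passed (adjusted p = 0.516 and 0.947).

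For the cytoplasmic pair the difference was 1.17 ± 0.26 for Dusp6 (adjusted p = 0.00175) and 0.98 ± 0.28 for Dusp7 (adjusted p = 0.0198). Dusp6 thus had opposite signs in the 2 cell types, higher with LPS in primary microglia and lower in BV2 cells, although the BV2 value alone did not pass. The Dusp7 call was lost when any 1 of 5 libraries was left out: primary without LPS replicate 1 (adjusted p = 0.0719) or 2 (0.0734), LPS-treated primary replicate 3 (0.0523), BV2 without LPS replicate 1 (0.21) and LPS-treated BV2 replicate 2 (0.0909). For Dusp8 the difference was -3.07 ± 0.88 (adjusted p = 0.0188) and rested on the 2 counts of the untreated BV2 cells. It was lost without primary replicate 2 without LPS (0.0515), BV2 replicate 1 (0.13) or 2 (0.107) without LPS, or LPS-treated BV2 replicate 1 (0.07). Without either of 2 libraries the count of members called was 3 in place of 5: primary without LPS replicate 2 and BV2 without LPS replicate 1. For Dusp16 the difference was 0.11 ± 0.40 (adjusted p = 0.998), with a 95% interval of -0.67 to 0.90, and for Dusp10 -0.27 ± 0.86 (adjusted p = 0.987).

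**Figure D3:**
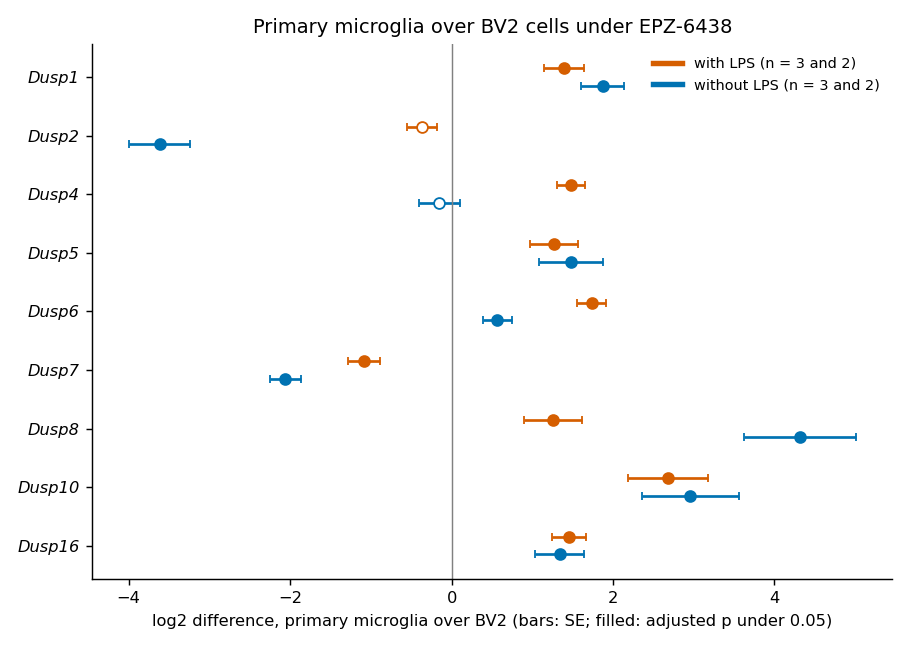
Log2 ratio of primary microglia over BV2 cells for each member, with LPS and without, with bars of 1 standard error and filled points for an adjusted p under 0.05. Dusp2 moves between -0.37 with LPS and -3.62 without, Dusp4 between 1.48 and -0.15, and Dusp16 lies near the same place, at 1.45 and 1.34.

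Set directly against BV2 cells, primary microglia without LPS had more of 6 members and less of 2, while 41.5% of all 11626 genes tested were higher and 32.5% lower, so most genes of any kind differed. Higher in primary microglia were Dusp1 (log2 ratio 1.87 ± 0.27), Dusp5 (1.48 ± 0.40), Dusp6 (0.57 ± 0.18), Dusp10 (2.96 ± 0.60), Dusp16 (1.34 ± 0.31) and Dusp8, with 57 counts against 2 and a ratio of 22.3 (95% exact counting interval 5.90 to 189). Dusp10 passed the filter in this fit only through primary libraries, and BV2 cells without LPS held 4 counts of it in all. Its place among the 6 is therefore not independent of the filter (without the filter the log2 ratio was 2.93). Lower were Dusp2 (-3.62 ± 0.38) and Dusp7 (-2.06 ± 0.19), and Dusp4 did not pass (-0.15 ± 0.25, adjusted p = 0.595). The adjusted p-values of the 8 called members ran between 3.18e-10 for Dusp7 and 0.00637 for Dusp6. Without BV2 replicate 2 the calls of Dusp5 (1.01, adjusted p = 0.0551) and Dusp6 (0.43, adjusted p = 0.103) were lost.

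With LPS in both, primary microglia had more of 7 members and less of 1, where 43.1% of all genes were higher and 30.7% lower. The log2 ratio was 1.74 ± 0.18 for Dusp6, 1.48 ± 0.17 for Dusp4, 1.45 ± 0.21 for Dusp16, 1.39 ± 0.24 for Dusp1, 1.27 ± 0.30 for Dusp5, 2.69 ± 0.50 for Dusp10 and 1.25 ± 0.36 for Dusp8. The same limit holds here for Dusp10, with 7 counts in all in LPS-treated BV2 cells (log2 ratio 2.67 without the filter). For Dusp7 the log2 ratio was -1.09 ± 0.20 (adjusted p = 2.21e-05). Dusp2 was at 53.8 ± 10.7 CPM in LPS-treated primary microglia (SD, n = 3) and 69.9 ± 8.42 CPM in LPS-treated BV2 cells (SD, n = 2), a log2 ratio of -0.37 ± 0.18 (adjusted p = 0.0693). That value passed without LPS-treated primary replicate 3 (-0.46, adjusted p = 0.0458), and the Dusp8 call was lost without LPS-treated BV2 replicate 2 (1.03, adjusted p = 0.0523).

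The primary cultures held RNA of other glia and of markers of neurons, fibroblasts and mural cells. Summed astrocyte markers stood at 899 to 1572 CPM in LPS-treated and 896 to 1487 CPM in untreated primary microglia, with 10 of 10 markers detected. The sums were 38.0 to 41.6 CPM in LPS-treated and 41.6 to 43.0 CPM in untreated BV2 cells, with 1 and 2 of 10 detected. Gfap, Aqp4 and Gja1 were among those at 0 there. Nearly all of the BV2 sum was Aldoc, which averaged 39.8 CPM with LPS and 42.2 CPM without. Aldoc was lower in primary microglia, at 23.2 CPM with LPS and 25.2 CPM without. Summed oligodendrocyte lineage markers were at 202 to 250.4 CPM in LPS-treated and 225 to 233 CPM in untreated primary microglia. BV2 cells had 25.1 to 25.8 and 28.4 CPM, of which Cnp averaged 24.8 and 27.4 CPM. Neuron markers summed to 101 to 123 and 104.2 to 104.5 CPM in primary microglia, and all 7 were at 0 in both BV2 groups. Fibroblast and mural markers summed to 155 to 219 CPM in LPS-treated and 179 to 382 CPM in untreated primary microglia. In BV2 cells they summed to 1.01 to 1.97 and 0.661 to 0.936 CPM. The sum of endothelial markers went the other way, at 13.1 to 16.8 and 15.5 to 23.3 CPM in primary microglia. BV2 cells had 96.1 to 109 and 111 to 138 CPM, of which Kdr averaged 91.6 and 114 CPM. The endothelial list was not uniform. Cdh5 was higher in primary microglia, at 7.75 CPM with LPS and 8.47 CPM without. BV2 cells had 0.926 CPM of Cdh5 with LPS and 0.321 CPM without. The part of such other cells in the differences between primary microglia and BV2 cells was not tested. Cell type, culture and preparation cannot be told apart in those differences. In such bulk RNA fewer cells of a type and less RNA per cell cannot be told apart. The astrocyte sums of treated and untreated primary microglia overlapped. Of 9 astrocyte markers tested 1 rose with LPS and 3 fell, where 21.4% of all genes rose and 17.8% fell. Named after their values were seen, these were Aqp4 (0.93 ± 0.17), and Sox9 (-1.90 ± 0.40), Fgfr3 (-0.97 ± 0.19) and Gja1 (-0.50 ± 0.15). Summed microglia markers did not overlap, at 1627 to 1789 CPM with LPS and 1866 to 2089 CPM without. Of 9 tested 3 fell, beside 17.8% of all genes, and counts this small can lie near that share. They were P2ry12 (-1.45 ± 0.39), Csf1r (-1.40 ± 0.33) and Trem2 (-0.36 ± 0.12). P2ry12 averaged 2.07 CPM with LPS and 5.68 CPM without. It passed the low-count filter only through untreated libraries, so its call is not independent of the filter. The part of these marker changes in the LPS responses of the members in primary microglia was not tested.

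Levels per length (RPKM, from CPM and spliced length) showed how the family's summed RNA was divided among members. The 9 members summed to 123 ± 9.43 RPKM in LPS-treated primary microglia, against 44.3 ± 1.59 RPKM without LPS (SD, n = 3 each). In BV2 cells they summed to 85.8 ± 8.61 RPKM with LPS and 53.6 ± 6.65 RPKM without (SD, n = 2 each). The sums of treated and untreated libraries did not overlap in either cell type. The 4 nuclear members made up 63.3% ± 3.92 of the sum in LPS-treated primary microglia, against 40.7% ± 0.36 without LPS, and 69.8% ± 1.45 in LPS-treated BV2 cells, against 32.9% ± 5.65 without. The cytoplasmic members made up 23.0% with LPS and 45.7% without in primary microglia, and 23.5% with LPS and 64.6% without in BV2 cells. Their summed level went opposite ways: 28.4 ± 3.44 RPKM with LPS and 20.2 ± 0.11 RPKM without in primary microglia (SD, n = 3 each), and 20.2 ± 2.15 RPKM with LPS and 34.8 ± 7.48 RPKM without in BV2 cells (SD, n = 2 each), with no overlap in either. The nuclear members summed to 78.2 RPKM with LPS and 18.0 RPKM without in primary microglia, and to 60.0 RPKM with LPS and 17.4 RPKM without in BV2 cells. The members acting on JNK and p38 made up 13.7% with LPS and 13.6% without in primary microglia, and 6.69% with LPS and 2.51% without in BV2 cells.

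**Figure D4:**
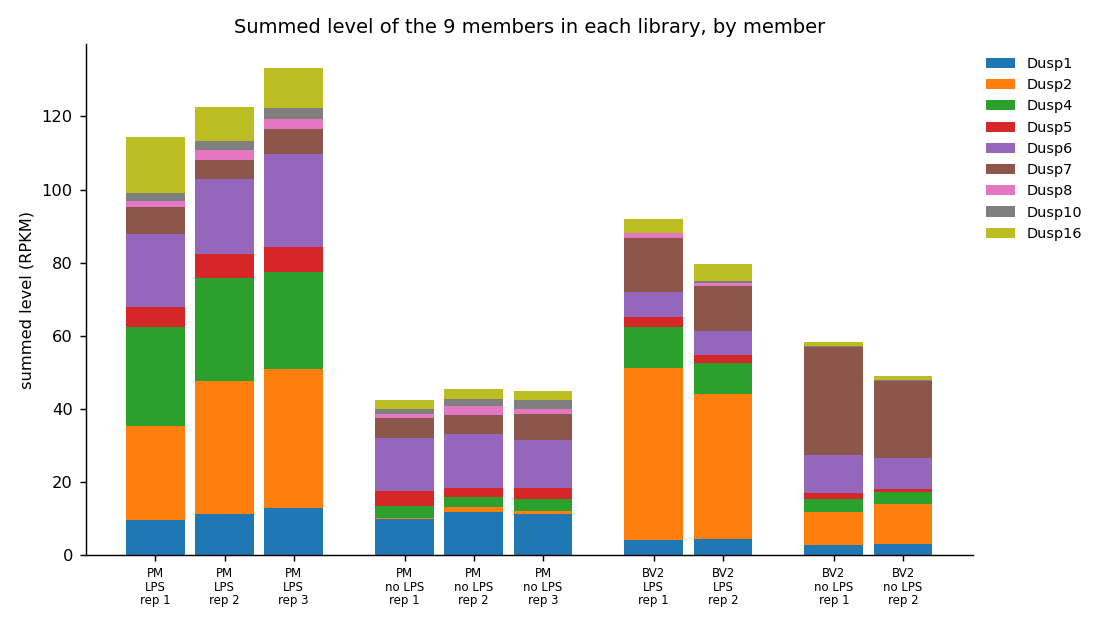
Summed level of the 9 members in each of the 10 libraries, in RPKM, stacked by member, with PM for primary microglia. The sums lie at 114 to 133 RPKM in LPS-treated primary microglia, 42.5 to 45.4 RPKM without LPS, 79.7 to 91.9 RPKM in LPS-treated BV2 cells and 48.9 to 58.3 RPKM without LPS.

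The leading member on the RPKM scale differed between groups. In LPS-treated primary microglia Dusp2 (33.3 ± 6.63 RPKM) and Dusp4 (27.3 ± 0.80) came first with overlapping values, ahead of Dusp6 (22.1 ± 3.11), then Dusp16 (11.9 ± 3.12) and Dusp1 (11.3 ± 1.66), which overlapped. Without LPS the order in primary microglia was Dusp6 (14.2 ± 0.85 RPKM), Dusp1 (11.0 ± 0.98) and Dusp7 (6.02 ± 0.96), whose values did not overlap, and Dusp2 was last of the 9 at 0.789 ± 0.52. LPS-treated BV2 cells were led by Dusp2 (43.2 ± 5.21 RPKM), which made up 50.3% of their sum, ahead of Dusp7 (13.5 ± 1.87) and Dusp4 (9.84 ± 1.85). Untreated BV2 cells were led by Dusp7 (25.2 ± 6.17 RPKM, 46.8% of the sum), ahead of Dusp2 (9.85 ± 1.39) and Dusp6 (9.56 ± 1.31), which overlapped.

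Across the 4 groups the CPM of single members fell in different orders. Dusp2 ran LPS-treated BV2, LPS-treated primary, untreated BV2, untreated primary, with no neighbours overlapping. Dusp7 ran untreated BV2, LPS-treated BV2, then the overlapping primary groups. For Dusp5 untreated primary microglia overlapped LPS-treated BV2 cells. For Dusp8 each of LPS-treated primary, untreated primary and LPS-treated BV2 cells overlapped the next, and only the untreated BV2 cells stood below. For Dusp10 the treated and untreated libraries overlapped within each cell type.

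The genes most like each member were sought by Pearson correlation of log2 CPM over the 10 libraries, which share cell type, treatment and preparation, so the values describe these libraries only. Dusp4 was most like Tnfaip3 (r = 0.998), which encodes A20, an inhibitor of NF-kB signalling, and then Tlr2 (0.995) and Gpr84 (0.995). Dusp2 was most like Adora2b (0.991), Rbpj (0.988) and Hcar2 (0.980), and Dusp16 like Slc7a11 (0.984), Ppfibp2 (0.984) and Ppp1r15a (0.980). Dusp1, called between cell types and not with LPS, was most like F3 (0.992), Srsf5 (0.989) and Ddah2 (0.988). Dusp10 was most like Rab5a (0.986), Bmpr1a (0.982) and Skp1a (0.982), and Dusp6 like Nrbp1 (0.983), Rcbtb1 (0.983) and Bambi (0.980). For Dusp5 the nearest were Tmem176a (0.974), Mfsd7a (0.972) and Hook2 (0.959), for Dusp7 Tbl2 (0.963), Pgm2 (0.960) and Rtn4ip1 (0.958), and for Dusp8 Id3 (0.974), Gadd45a (0.950) and Ube2e2 (0.950). Between members, Dusp1 and Dusp10 had r = 0.970, Dusp4 and Dusp16 0.895, and Dusp1 and Dusp7 -0.960.

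The kinases that these phosphatases act on, and the steps above and below them, were taken as lists chosen with earlier results of these data known. Their counts stand beside 21.4% of all genes that rose and 17.8% that fell in primary microglia, and 3.69% and 1.51% in BV2 cells; counts this small can lie near those shares. In primary microglia 3 of 9 MAP kinase genes tested rose and 2 fell. Mapk6, an atypical kinase, rose by a log2 fold change of 1.03 ± 0.12 and Mapk14, which encodes p38 alpha, by 0.42 ± 0.12 (adjusted p = 0.0112), while Mapk7, which encodes ERK5, fell (-1.14 ± 0.18). When any 1 of 4 libraries (each untreated one, or LPS-treated replicate 3) was left out, 3 of the list were called in place of 5. In BV2 cells 0 of 7 MAP kinase genes passed edgeR's test, with 1 at an unadjusted p under 0.05 and 0 by DESeq2. Nearest was Mapk14, at -0.60 ± 0.17 (adjusted p = 0.0764). With no filter, with the replicate block and in the fit of all 10 libraries, 1 of the list fell.

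Among MAP kinase kinases in primary microglia 2 of 6 rose and none fell: Map2k1, the ERK-activating MEK1, at 298 ± 41.5 CPM with LPS against 75.0 ± 11.5 CPM without (SD, n = 3 each; log2 fold change 1.98 ± 0.14), and Map2k4, which activates JNK and p38 (1.25 ± 0.14). In BV2 cells 0 of 6 passed edgeR's test, 0 had an unadjusted p under 0.05 and 0 passed DESeq2. Of the kinases a step higher, 2 of 21 rose and 6 fell in primary microglia. Map3k8 (Tpl2), which couples LPS signalling to ERK in macrophages, rose in both cell types, by 2.13 ± 0.17 in primary microglia and 1.61 ± 0.26 in BV2 cells. Map3k1 fell in both, with log2 fold changes of -2.15 ± 0.17 in primary microglia and -1.47 ± 0.29 in BV2 cells, and Map3k9 (-2.02 ± 0.47) and Map3k14 (-1.04 ± 0.30) fell in primary microglia. Map3k9 averaged 1.41 CPM with LPS and 5.42 CPM without. It passed the low-count filter only through untreated libraries, so its call is not independent of the filter. DESeq2 called 4 fallers in this list in place of 6 and did not call Map3k14 (adjusted p = 0.101). In BV2 cells 2 of 19 rose and 1 fell, the other riser being the scaffold gene Ksr1 (1.80 ± 0.42), whose call was lost without LPS-treated replicate 1 (1.10, adjusted p = 0.112).

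Of the kinases activated by MAP kinases, 3 of 10 rose and 4 fell in primary microglia (21.4% and 17.8% of all genes), and 1 of 10 rose and 1 fell in BV2 cells (3.69% and 1.51%). Mapkapk2 (MK2), the p38-activated kinase that stabilises cytokine mRNA, rose by 3.27 ± 0.12 in primary microglia and 1.28 ± 0.11 in BV2 cells. Rps6ka4 rose by 1.80 ± 0.13 in primary microglia, and Mapkapk3 fell (-1.03 ± 0.22). Mknk2 fell in primary microglia (-2.33 ± 0.15) and in BV2 cells (-0.54 ± 0.13, adjusted p = 0.033), the BV2 call being lost without untreated replicate 1 (adjusted p = 0.369) or 2 (0.282).

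Other brakes on the pathway came next. Of other dual-specificity phosphatases 2 of 8 rose and 2 fell in primary microglia, near the 21.4% and 17.8% of all genes: Dusp28 (1.65 ± 0.27) and Dusp11 (0.57 ± 0.12) rose, and Dusp18 (-0.89 ± 0.24) and Dusp3 fell. Dusp3 (VHR), an atypical phosphatase of ERK and JNK, was at 52.1 ± 2.01 CPM in LPS-treated primary microglia, against 133 ± 8.81 CPM without LPS (SD, n = 3 each), a log2 fold change of -1.36 ± 0.12. Dusp9, the third cytoplasmic ERK phosphatase of textbook lists and not among the 9, averaged 1.09 CPM with LPS and 0.999 CPM without in primary microglia, and had 0 counts in BV2 cells, under the 3-count floor of each library. In BV2 cells 0 of 10 other dual-specificity phosphatases passed edgeR's test, with 2 at an unadjusted p under 0.05 and 0 by DESeq2, and 1 fell without LPS-treated replicate 2.

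Of other phosphatases that act on MAP kinases, 4 of 8 rose and 1 fell in primary microglia, including the catalytic subunits Ppp2cb (0.80 ± 0.14) and Ppp2ca (0.65 ± 0.13). Leaving out any 1 of 5 libraries, all but LPS-treated replicate 1, brought that count of 5 to 2 or 3. In BV2 cells 0 of 8 passed edgeR's test, with 1 at an unadjusted p under 0.05 and 0 by DESeq2.

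Of ERK feedback inhibitors 3 of 9 rose in primary microglia, where 21.4% of all genes rose, and none fell. The count was 7 without LPS-treated replicate 1 (4 rose and 3 fell), and DESeq2 called 2 in primary microglia and 0 in BV2 cells. Spred1, which blocks the step from Ras to Raf, was at 183 ± 32.4 CPM with LPS, against 44.8 ± 3.70 CPM without (SD, n = 3 each), a log2 fold change of 2.02 ± 0.14. Errfi1 rose in primary microglia (0.92 ± 0.21), and was the 1 of 8 that rose in BV2 cells (1.22 ± 0.24), where the call was lost without untreated replicate 1 (1.14, adjusted p = 0.0522). In BV2 cells without LPS-treated replicate 2, 1 of this list rose and 1 fell.

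Of ERK-responsive genes 6 of 16 rose and 1 fell in primary microglia, and 5 of 10 rose and 2 fell in BV2 cells. Plaur (3.01 ± 0.13 and 1.48 ± 0.18), Junb (2.61 ± 0.15 and 1.61 ± 0.14) and Ier3 (1.97 ± 0.16 and 2.72 ± 0.18) rose in primary microglia and in BV2 cells. Fos, an early gene, was at 2.59 CPM with LPS against 8.34 CPM without in primary microglia (-1.72 ± 0.35), and Etv5 fell in BV2 cells (-1.23 ± 0.22). Fos passed the low-count filter only through untreated libraries, so its call is not independent of the filter. The lists were small, and their medians in primary microglia, between -0.23 for the kinases a step above MAP kinase kinases and 0.31 for the other phosphatases that act on MAP kinases, were below the 0.70 of the 9 members. That 0.70 is the value of Dusp8, the middle member, which did not pass edgeR's test (adjusted p = 0.102). Leaving out 1 library at a time, the Dusp8 value ran between 0.44 and 1.10. No test of the difference between lists was made.

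**Figure D5:**
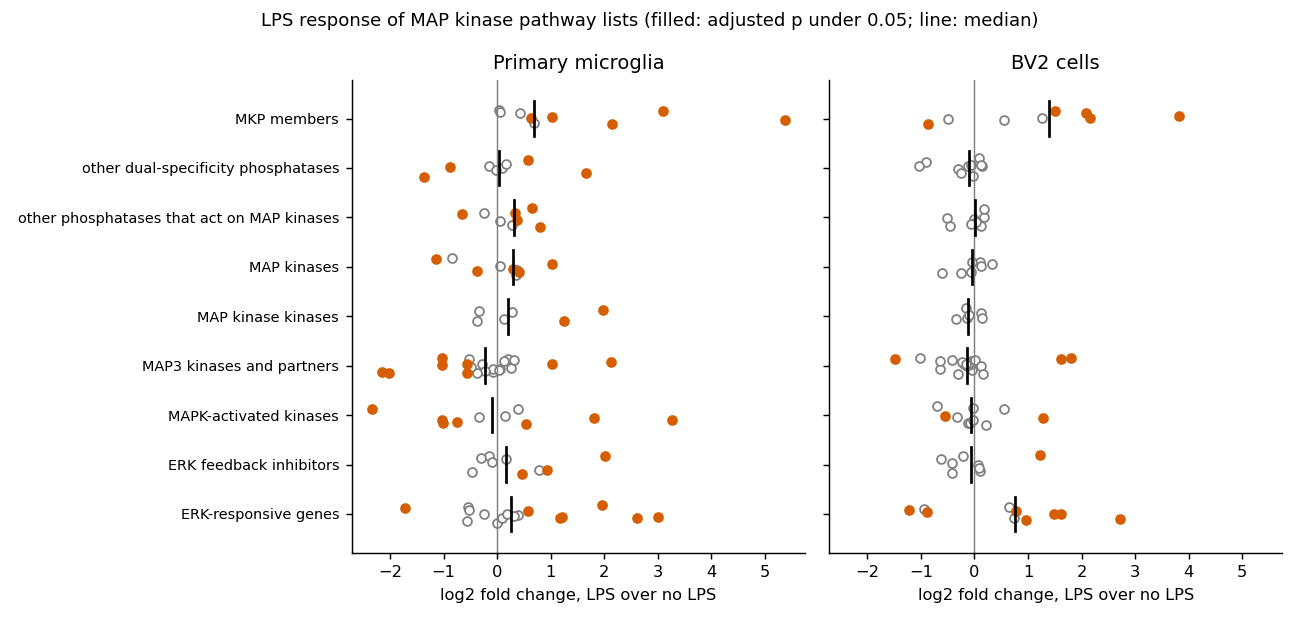
Log2 fold change with LPS against without for every tested gene of the family and of the pathway lists, in primary microglia and in BV2 cells, with filled points for an adjusted p under 0.05 and a line at each median. The family's medians are 0.70 in primary microglia and 1.39 in BV2 cells, and its widest values are 5.37 for Dusp2 in primary microglia and 3.82 for Dusp8 in BV2 cells, that of Dusp8 resting on 2 untreated counts.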

How the data were processed

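The deposited files gave raw whole-number counts of reads per gene for each library. Per the submitters' processing notes, CASAVA 1.8.2, Trimmomatic 0.33, STAR 2.5.1 and DESeq2 were named, with build mm10. Per the labels' protocols, ribosomal RNA was depleted and a directional kit was used, so the reverse-strand counts deposited by the authors were taken. The other strand held 0.682% to 2.21% of the gene counts of both strands together. Rows that name no gene (unmapped, multimapping, ambiguous or outside genes) held 70.4% to 79.5% of reads and were left out. Which annotation was counted is not stated in those sources.

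Genes were filtered with filterByExpr (minimum count 10, total 15) and analysed in R 4.3.3 with edgeR 4.0.16, using its robust quasi-likelihood test on TMM-scaled counts with Benjamini-Hochberg adjustment over all genes tested and a call at 0.05. Each LPS comparison used the libraries of its cell type. The difference of responses and the comparisons between cell types came from a fit of all 10 libraries. The standard error is the log2 fold change over the square root of F, and intervals from counts cover counting error only. Log2 CPM for correlations used a prior count of 2. Fits were first tested on simulated data. Alternatives were DESeq2 1.42.0, RLE size factors, no filter, unstranded counts, 7 structural RNA genes left out, other sets of libraries, a replicate block and leaving out each library. The members and lists were chosen with earlier results of these data known. All members are named, with up to 4 called genes of each list having the largest absolute log2 fold changes per LPS comparison and the 3 genes most correlated with each member. Of the list genes so named, Ppp2r5c, Ppm1a, Mapk3 and Dok1 were only counted, since each lost its call without at least 4 of the 6 libraries in turn.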

Additional observations from a re-analysis of the deposited data

Results flagged for a closer look

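Differences between the LPS responses of primary microglia and BV2 cells, tested in the fit of 10 libraries with edgeR's quasi-likelihood test, single out 5 members. The response of Dusp2 was larger in primary microglia by 3.25 on the log2 scale (adjusted p = 2.92e-06), with 3 of 3 treated primary libraries and 2 of 2 treated BV2 libraries above the untreated ones of their cell type. The response of Dusp4 was larger in primary microglia by 1.63 (adjusted p = 0.000286), with the same separation. Dusp6 differed by 1.17 (adjusted p = 0.00175): its 3 treated primary libraries were above the untreated ones, and its 2 treated BV2 libraries were below them. Dusp7 differed by 0.98 (adjusted p = 0.0198), with overlapping primary groups and 2 of 2 treated BV2 libraries below the untreated ones. Dusp8 differed by -3.07 (adjusted p = 0.0188), the larger response being in BV2 cells, from 32 counts with LPS and 2 counts without.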

How the results depend on the processing

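Of 574 member values under the alternatives, 538 kept their direction and their side of the threshold, 18 lost the call, 7 gained it and 11 changed sign, none of the last being a called value. DESeq2 called 3 of 9 members in the difference of LPS responses (main count 5) and 311 genes for LPS in BV2 cells (main count 485), with Dusp7 and Dusp8 at adjusted p-values of 0.0753 and 0.0711 in the difference. Without TMM factors 3 members and 698 of all genes (main count 1418) were called in the difference, the median of all genes moving by 0.13, and Dusp6 and Dusp7 had adjusted p-values of 0.051 and 0.168. DESeq2 moved the median of primary microglia against BV2 by 0.25 without LPS and 0.22 with it, over another set of genes. Leaving out 1 library at a time, the calls in the difference ran between 3 and 5 members, and those for LPS in BV2 cells between 353 and 800 genes, the highest without LPS-treated replicate 1. Over those fits the log2 fold change with LPS in primary microglia ran between -0.0736 and 0.13 for Dusp1 and between -0.0502 and 0.21 for Dusp7. The difference of responses ran between -0.20 and 0.34 for Dusp16, -1.22 and 0.37 for Dusp10 and -0.90 and 0.25 for Dusp5. The causes were not tested. Same-numbered libraries of primary microglia had correlated deviations of 0.18, -0.08 and 0.19, and those with different numbers had -0.30 to 0.20. In BV2 cells the values were 0.16 for same numbers and -0.16 for different ones. With 2 libraries per group these are equal in size by construction, so only their sign is informative. The main fits did not take the numbers as pairs. With the replicate block, Dusp8 passed for LPS in primary microglia (0.68, adjusted p = 0.0479) and Dusp2 passed in LPS-treated primary microglia against BV2 (-0.40, adjusted p = 0.019). The block gave 4479 calls in place of 4178 for LPS in primary microglia and 596 in place of 485 in BV2 cells. Without the filter on low counts the same members passed (adjusted p = 0.039 and 0.047). Depth limits Dusp10 in BV2 cells and Dusp8 in untreated BV2 cells most, at 1 to 3 counts per library without LPS.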

Other observations

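Some genes of the pathway lists also differed between the LPS responses of the 2 cell types, tested in the same fit of 10 libraries, in which 8.65% of all genes were called positive and 3.54% negative. The calls covered 3 of 10 MAP kinases, 2 of 6 MAP kinase kinases, 2 of 21 kinases a step higher and 5 of 10 kinases activated by MAP kinases. Of the MAP kinases, Mapk4, Mapk10 and Mapk15 had 0 counts in BV2 cells, so no difference could be measured for them. Among the genes of these lists and of the feedback inhibitors and other phosphatases, Map2k1 (2.17 ± 0.23, adjusted p = 6.56e-08), Mapkapk2 (2.03 ± 0.17, adjusted p = 8.89e-10), Mapk14 (1.06 ± 0.21, adjusted p = 0.000718) and Spred1 (1.96 ± 0.22, adjusted p = 1.7e-07) had the larger or more positive log2 response in primary microglia. Mknk2 (-1.74 ± 0.22, adjusted p = 7.22e-07) and Dusp3 (-1.45 ± 0.19, adjusted p = 1.28e-06) had the lower response there. These genes were picked after their values were seen and do not cover every call. Ksr1 (-1.83 ± 0.52, adjusted p = 0.021) and Mapk7 (-1.22 ± 0.31, adjusted p = 0.00694) were also called lower. Dusp28 (1.82 ± 0.48, adjusted p = 0.0103) and Rps6ka4 (1.30 ± 0.24, adjusted p = 2e-04) were also called more positive. For Map3k8 the difference was 0.56 ± 0.33 and did not pass (adjusted p = 0.333).

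Dusp3 was at 52.1 ± 2.01 CPM in LPS-treated primary microglia and 133 ± 8.81 CPM without LPS (SD, n = 3 each), against 196 ± 15.1 CPM in LPS-treated BV2 cells and 183 ± 10.9 CPM without LPS (SD, n = 2 each).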
